A study of Mus musculus with 6 samples.

Results

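The genes described here are the effectors of the Hippo pathway and a set of target genes of its coactivator YAP, in mouse embryonic stem (ES) cells that lack REST. The 10 genes were listed by name: the targets Ccn1 (Cyr61 in the files), Ccn2 (Ctgf), Ankrd1 and Amotl2, the coactivators Yap1 and Wwtr1 (which encodes TAZ), and the DNA-binding partners Tead1, Tead2, Tead3 and Tead4. They were found on the array by the symbol of the authors' deposited table or, where that is empty, by the array's target name. This gave 16 of 25697 probes and 10 of 17759 named genes. Of the 10 genes 7 had a probe that could be tested, as did 8636 of all genes.

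All samples were total RNA of the ES cell line E14Tg2a, a widely used line that needs no feeder layer. The control cells, with the source name FloRes, and the REST KO cells, with the source name FloResCre, had 3 samples each, and each sample was hybridised to 1 array of a single Illumina MouseRef-8 v2 chip. A file of the series calls the control group Rest flox. The labels do not say how Cre was supplied, which exons were removed, whether a genotype is 1 clone or whether replicates were separate cultures. The spread behind each p-value is thus that among 3 samples of a genotype, and it may be technical. Controls lay on the first 3 positions of the chip and REST KO on the last 3, so chip position and genotype cannot be told apart. In RNA from whole cultures, a change in the share of cells of a type and a change in RNA per cell cannot be told apart either.

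In the Hippo pathway the kinases MST and LATS phosphorylate YAP and TAZ, which keeps these coactivators in the cytoplasm. Unphosphorylated YAP and TAZ enter the nucleus, where they bind DNA through TEAD factors and raise the transcription of genes such as Ccn1, Ccn2, Ankrd1 and Amotl2. Activity is therefore set largely by phosphorylation and location, which an array of transcript levels does not measure. In the preimplantation embryo TEAD4 and YAP are known for specifying the trophectoderm, and in ES cells TEAD2 and YAP are abundant.

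TEAD factors bind the letters GGAATG, read as CATTCC on the other strand. The promoters of the 3 targets with an entry in the RefSeq promoter table, and of Yap1, are shown because all 4 hold this motif. Each is the 250 bases before the RefSeq gene start (assembly GRCm38.p6), written 5′ to 3′ on the gene's strand, with the motif in capitals. The Ccn1 window is chr3:145649986-145650235 on the minus strand, Amotl2 is chr9:102717554-102717803 on the plus strand, Ankrd1 is chr19:36119845-36120094 on the minus strand, and Yap1 is chr9:8004597-8004846 on the minus strand.
Ccn1: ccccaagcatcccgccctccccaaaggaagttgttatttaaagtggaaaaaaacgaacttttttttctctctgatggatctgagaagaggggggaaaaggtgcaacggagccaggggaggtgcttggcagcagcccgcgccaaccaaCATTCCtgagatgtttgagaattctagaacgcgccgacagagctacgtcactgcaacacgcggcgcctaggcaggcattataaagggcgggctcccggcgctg
Amotl2: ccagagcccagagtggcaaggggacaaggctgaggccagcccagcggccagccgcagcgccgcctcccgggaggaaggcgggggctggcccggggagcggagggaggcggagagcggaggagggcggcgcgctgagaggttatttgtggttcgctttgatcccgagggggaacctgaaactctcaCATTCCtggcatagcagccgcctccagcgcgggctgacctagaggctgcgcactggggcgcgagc
Ankrd1: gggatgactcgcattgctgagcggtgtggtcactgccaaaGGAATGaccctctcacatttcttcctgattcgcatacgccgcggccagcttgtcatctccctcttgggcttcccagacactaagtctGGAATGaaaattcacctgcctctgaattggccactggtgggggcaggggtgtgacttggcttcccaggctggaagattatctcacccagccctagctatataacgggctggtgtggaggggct
Yap1: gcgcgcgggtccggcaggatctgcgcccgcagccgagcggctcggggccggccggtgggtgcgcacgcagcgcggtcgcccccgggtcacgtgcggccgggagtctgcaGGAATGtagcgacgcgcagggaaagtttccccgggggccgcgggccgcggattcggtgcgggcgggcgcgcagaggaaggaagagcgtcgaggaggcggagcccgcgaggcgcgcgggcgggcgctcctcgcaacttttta

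Counted from the gene start, the motif begins at base -103 in Ccn1, -65 in Amotl2 and -141 in Yap1, and at bases -210 and -123 in Ankrd1. Of the 7 listed genes with a promoter entry 6 held the motif in at least 1 window, and Tead2 did not. It was present in 12.6% of all 32851 RefSeq promoter windows of this length, and 14.4% of all 27025 genes had at least 1 window with it. A match of these letters is a description of the sequence and not a measured binding site, and Yap1, Wwtr1 and Tead3 held it as well as the targets did. Promoters of Ccn2, Tead1 and Tead4 were not analysed here.

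Arrays detected 42.5% to 44.9% of their probes, with a median raw intensity of 120.5 to 132.8 and a mean of 40.0 to 40.2 beads per probe. Levels are given as log2 normalised intensities after background correction. They compare arrays for 1 probe and do not rank different genes. A probe counted as detected on an array at a detection p under 0.05, and it was tested if detected on at least 3 of the 6 arrays. The probe for the deleted gene, Rest on chromosome 5, was at 4.94, 4.97 and 5.11 in controls and 4.87, 4.92 and 5.08 in REST KO, was detected nowhere, and so gives no check of the labels. All 7 ES cell markers examined were detected on every array. Control replicate 2 stood apart from the other controls: limma's array weights gave it 0.309, while the remaining 5 arrays had 1.03 to 1.5. Its mean level of the ES cell markers, 11.80, lay below those of controls 1 and 3 (12.46 and 12.57).

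The matricellular target genes Ccn1 and Ccn2 were higher in every REST KO array than in any control array, by 2.65-fold and 2.37-fold, whereas the transcripts of the coactivators and of Tead2 differed by at most 1.10-fold. Only a dimmer Ccn1 probe passed the test, however, and it entered the test only because the REST KO arrays detected it. With each gene taken by its brightest probe limma called none of the 7 listed genes tested (3 had an unadjusted p under 0.05). Of the 8 probes tested 1 was called (adjusted p = 0.0452), and 1.27% of all 11388 tested probes were called in the same fit. This share gives no measure of the 1 call, since detection in REST KO alone had admitted the probe. The background share was made up of 1.05% higher in REST KO and 0.22% lower. An unadjusted p under 0.05 was reached by 4 of the 8 probes, and by 19.9% of all tested probes. The arrays of the genotypes did not overlap for 4 of the 8, and for 25.1% of all tested probes. Both counts include the dimmer Ccn1 probe that REST KO alone had admitted. By gene, with the brightest probe, 3 of 7 had an unadjusted p under 0.05, where 20.4% of all tested genes had one. Arrays did not overlap in 3 of the 7, and in 26.1% of all tested genes. Ankrd1, Tead1 and Tead3 had no probe detected on any array, so nothing can be said of their direction.

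Ccn1 encodes a secreted matricellular protein that binds integrins, and its gene is on chromosome 3. Its brightest probe (ILMN_2794645) read 6.27, 6.66 and 7.29 in controls 1 to 3, and 8.18, 8.35 and 7.90 in REST KO 1 to 3. Every array detected it, the genotypes did not overlap, and control replicate 3 was the control nearest to REST KO. In raw units these were intensities of 175.8, 178.1 and 249.7 against 368.0, 409.1 and 336.2, with a standard error over beads of 9.66 to 25.5, which is the error within an array and not that between samples. The log2 difference was 1.41 ± 0.26 (SE, n = 3 per genotype, 95% interval 0.80 to 2.01), with limma's adjusted p = 0.0528, just short of the threshold of 0.05.

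The remaining Ccn1 probes were dimmer. The second (ILMN_2710253) was detected on no control array and on all REST KO arrays, so it entered the test only through the genotype where it was high. It read 5.04, 5.41 and 5.53 in controls and 6.29, 6.20 and 6.11 in REST KO. These background values in the controls allow only a bound, at least 1.33-fold higher in REST KO, with limma's adjusted p = 0.0452. A probe that enters in this way had to differ, so its call gives no support beyond the levels themselves. The third (ILMN_1235571) was at 5.18, 5.44 and 5.45 in controls, none detected, and at 6.15, 5.83 and 5.91 in REST KO, where 2 of 3 arrays detected it. It was not tested and was at least 1.13-fold higher. All 3 probes therefore placed every REST KO array above every control.

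Whether Ccn1 passed depended on single arrays and on the processing. The brightest probe passed without control replicate 2 (1.37, adjusted p = 0.0285) and without control replicate 3 (1.68, adjusted p = 0.0125), and with all 6 arrays it passed with no background correction (0.91, adjusted p = 0.0263), an offset of 50 (1.16, adjusted p = 0.0326), array weights (1.34, adjusted p = 0.0253) and trend and robust eBayes (adjusted p = 0.0243). Its adjusted p ran from 0.0125 to 0.219 over all alternatives. The second probe did not pass without control replicate 1 (adjusted p = 0.103) or without any 1 REST KO array (adjusted p from 0.096 to 0.212). It also did not pass with no background correction (0.0543), with no filter (0.0628) or with the replicate block (0.0927), within a range of 0.0185 to 0.212 over all alternatives.

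Ccn2, on chromosome 10, encodes connective tissue growth factor, a relative of Ccn1 that is also secreted to the matrix. Its single probe was bright on every array. Controls 1 to 3 read 10.98, 12.06 and 11.45, and REST KO arrays 12.86, 12.81 and 12.53. The controls spanned more than 1 unit, with control replicate 2 nearest to REST KO, whereas the REST KO arrays lay close together (SD 0.54 in controls and 0.18 in REST KO). The log2 difference was 1.24 ± 0.26 (SE, 95% interval 0.64 to 1.85, adjusted p = 0.0658). Raw intensities were 2256.8, 4149.3 and 2941.0 in controls and 7550.3, 7160.9 and 5976.5 in REST KO. Without control replicate 2 the difference was 1.52 (adjusted p = 0.0091), and the adjusted p ran from 0.0091 to 0.25 over all alternatives. The control nearest to REST KO thus differed between the 2 genes, replicate 3 for Ccn1 and replicate 2 for Ccn2.

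Amotl2 encodes an angiomotin family protein of cell junctions that binds YAP and restrains it, so the gene is both a target and an inhibitor. It lies on chromosome 9. Its level was 6.81, 6.78 and 6.68 in controls and 7.10, 7.396 and 6.96 in REST KO. The genotypes did not overlap, but the distance from the highest control to the lowest REST KO array was small. The log2 difference of 0.40 ± 0.13 (SE, 95% interval 0.09 to 0.71) did not pass the test, with limma's adjusted p = 0.165 and from 0.0702 to 0.39 over the alternatives.

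Ankrd1, a nuclear ankyrin repeat protein of muscle on chromosome 19 and a widely used YAP reporter gene, was at background by both probes. The brighter read 5.08, 5.19 and 5.44 in controls and 5.53, 5.04 and 5.25 in REST KO, and the other 5.04 to 5.21 over all 6 arrays. No direction is given for Ankrd1, since a level below detection does not show whether the gene is silent or low in both genotypes.

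The coactivator genes showed no such separation. Yap1, on chromosome 9, read 9.34, 9.58 and 9.33 in controls and 9.34, 9.67 and 9.45 in REST KO. The values of the 2 genotypes were interleaved, and the log2 difference was 0.07 ± 0.13 (SE, adjusted p = 0.803). Its 95% interval of -0.23 to 0.37 leaves room for a fall or a rise of that size. Wwtr1, on chromosome 3, read 6.36, 6.48 and 6.37 in controls and 6.54, 6.65 and 6.43 in REST KO, again with overlap. Its difference was 0.14 ± 0.10 (adjusted p = 0.503, 95% interval -0.11 to 0.38). The second Wwtr1 probe was detected nowhere, at 5.26 to 5.51.

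Of the TEAD genes Tead2 and Tead4 were measured. Tead2, on chromosome 7, the TEAD factor known from early neural and ES cells, read 11.91, 11.94 and 11.83 in controls and 12.03, 12.01 and 11.91 in REST KO. Its arrays differed little, with an SD of 0.05 in controls and 0.06 in REST KO. The difference was 0.09 ± 0.10 (SE, adjusted p = 0.633, 95% interval -0.13 to 0.32). Tead1, on chromosome 7, was detected nowhere at 4.84 to 5.06, as was Tead3, on chromosome 17, at 5.01 to 5.17.

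Tead4, on chromosome 6, the TEAD factor that specifies trophectoderm, had 3 probes, and its brightest (ILMN_3157399) was named only by the array's target name, with no symbol in the authors' deposited table. This probe read 7.10, 5.60 and 6.77 in controls and 6.04, 6.02 and 6.15 in REST KO. The REST KO arrays lay between control replicate 2, which did not detect the probe, and the other 2 controls. The log2 difference was -0.42 ± 0.35 (SE, adjusted p = 0.54, 95% interval -1.24 to 0.39). Without control replicate 2 it was -0.87 (adjusted p = 0.0143), without control replicate 1 it was -0.12 (adjusted p = 0.915) and without control replicate 3 it was -0.28 (adjusted p = 0.777). Over all alternatives the adjusted p ran from 0.0143 to 0.915. A second probe (ILMN_2599986) was detected only in control replicate 3. It read 5.68, 5.38 and 5.89 in controls against 5.25, 5.12 and 5.24 in REST KO, was not tested, and its arrays did not overlap. The third was detected nowhere. Among the 7 tested genes Tead4 was thus the 1 whose brightest probe had a lower mean in REST KO, with a size that moved with single control arrays.

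**Figure D1:**
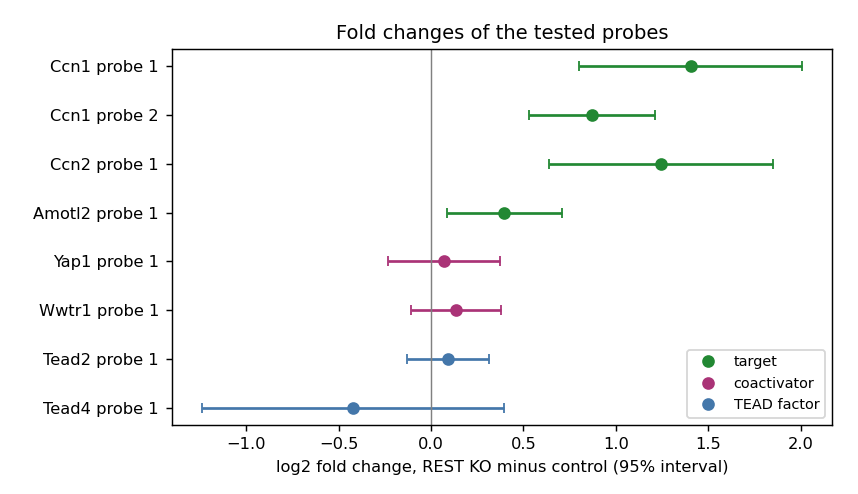
Log2 fold change (REST KO minus control) of the 8 tested probes, with points at the estimate and bars for the 95% interval of the limma fit on 3 arrays per genotype. The second Ccn1 probe was not detected in controls, so its estimate is against background values. The intervals of Ccn1, Ccn2 and Amotl2 lie above 0 before any adjustment for multiple testing, and those of Yap1, Wwtr1, Tead2 and Tead4 include 0.

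To relate targets to effectors, the level of each effector was subtracted from that of each target within every array, and the difference was compared between genotypes. This removes a shift in log2 level that is equal in both genes of a pair on 1 array. A factor that scales the signal of both genes alike need not cancel fully, because the offset compresses changes of dim probes. Ccn1 minus Yap1 ran from -3.07 to -2.04 in controls and from -1.55 to -1.16 in REST KO, a shift of 1.33 ± 0.34 (SE, n = 3 per genotype). Against Wwtr1 the shift of Ccn1 was 1.27 ± 0.31, and against Tead2 it was 1.31 ± 0.34. Ccn2 shifted by 1.17 ± 0.28 against Yap1, 1.11 ± 0.28 against Wwtr1 and 1.15 ± 0.31 against Tead2. Amotl2 shifted by 0.33 ± 0.11, 0.26 ± 0.08 and 0.30 ± 0.11 against the same 3 genes.

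In these 9 pairs, and in Ccn1 against Tead4 (1.83 ± 0.59), every REST KO array lay above every control. Ccn2 and Amotl2 against Tead4 overlapped, at 1.67 ± 0.77 and 0.82 ± 0.49, with control replicate 2 low in Tead4. Each shift is the log2 fold change of the target minus that of the effector. The 12 pairs share 7 genes, so they restate the fold changes above and are not separate results. The share over other gene pairs was not computed, and among single tested genes 26.1% had arrays that did not overlap. An exact two-sided permutation test of 3 against 3 arrays cannot give less than p = 0.1. It gave that value in 10 of the 12 pairs (0.12 after Benjamini-Hochberg adjustment over the 12), and the remaining 2 pairs gave 0.2 and 0.3. Ccn1 and Ccn2, and by a smaller amount Amotl2, thus lay further from the controls than the transcripts of the coactivators did. With 3 against 3 arrays this permutation test cannot pass a threshold of 0.05.

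**Figure D2:**
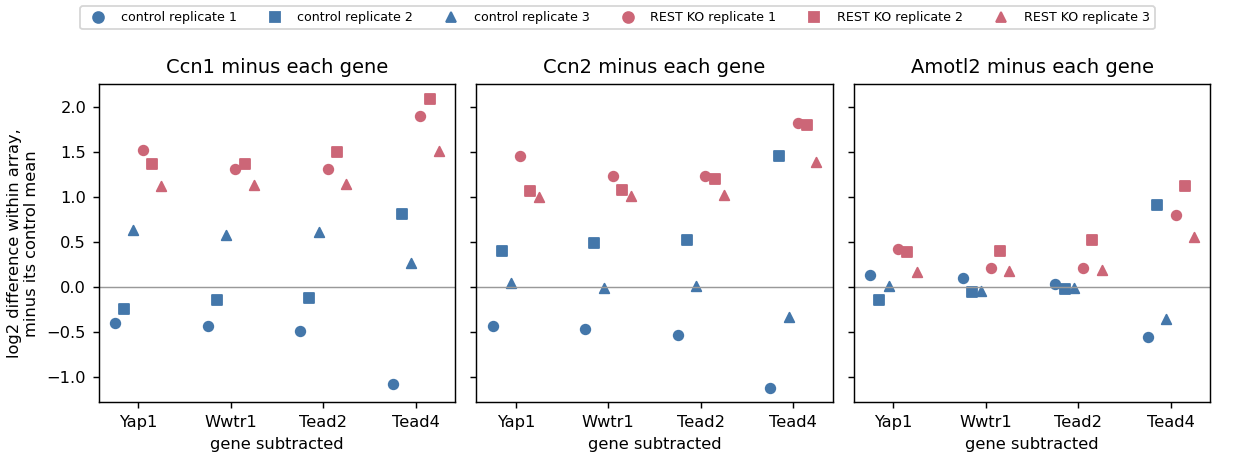
Within-array log2 difference between a target (panels Ccn1, Ccn2 and Amotl2) and each of 4 effector genes, shown relative to the mean of the 3 controls. Against Yap1, Wwtr1 and Tead2 all REST KO points lie above all control points, and against Tead4 control replicate 2 lies among or near the REST KO points for Ccn2 and Amotl2.

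Of 26 further genes taken from general knowledge as YAP and TAZ targets, 23 were on the array, 9 of these were detected on no array and 13 were tested. By the brightest probe 1 rose and none fell, where 1.11% of all tested genes rose. The median log2 fold change was 0.26, against -0.01 over the 8636 genes tested, and 9 of the 13 were above 0, against 47.7% of all genes. The called gene was Axl, a receptor tyrosine kinase, which read 7.34, 7.53 and 7.83 in controls and 8.49, 8.68 and 8.62 in REST KO. Its difference was 1.03 ± 0.14 (SE, adjusted p = 0.031), and its arrays did not overlap. Edn1, the endothelin precursor gene, had 0.84 ± 0.24 (adjusted p = 0.124), and Fjx1, a secreted regulator of planar polarity, 0.52 ± 0.18 (adjusted p = 0.168). Thbs1, F3, Crim1, Fgf2, Inhba, Cavin2, Dlc1 and Ect2 were among those detected nowhere. The count was 0 without control replicate 1 or any 1 REST KO array, 3 without control replicate 2 and 2 without control replicate 3. Of all 11388 tested probes 825 rose without control replicate 2 and 231 without control replicate 3.

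Upstream of YAP, 21 of 29 listed genes were on the array and 14 were tested. With limma none passed in either direction, and 5 had an unadjusted p under 0.05, where 20.4% of all tested genes had one. The median was 0.06. The kinase genes Stk3 and Stk4, which encode MST2 and MST1, had -0.42 ± 0.18 (adjusted p = 0.255) and 0.06 ± 0.10, and Sav1, their scaffold, had 0.04 ± 0.11. The smallest adjusted p belonged to Vgll4, a TEAD cofactor that competes with YAP (0.41 ± 0.14, adjusted p = 0.165, detected on 2 of 3 controls), Wwc2, a KIBRA relative (-0.28 ± 0.10, adjusted p = 0.17), and Rassf1, which binds MST kinases (0.52 ± 0.19, adjusted p = 0.188). Lats2, Nf2, Amot, Mob1b, Fat4, Vgll1 and Vgll2 were detected nowhere. Without control replicate 2, 2 of the 14 genes rose. In that setting 1668 of all 11388 tested probes were called, 825 of them higher in REST KO, so the 2 say little about this list.

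Ccn1, Ccn2 and Ankrd1 are also known as targets of serum response factor (SRF), which is driven by actin dynamics, so a short list of such genes was set beside them. Of 13 genes 10 were tested, 3 rose and none fell, where 1.11% of all tested genes rose. The median was 0.80, against -0.01 over all tested genes, and 9 of 10 were above 0, against 47.7% of all. The called genes were the smooth muscle actin gene Acta2 (2.03 ± 0.31, adjusted p = 0.0384), the transgelin gene Tagln (1.45 ± 0.15, adjusted p = 0.0239, detected on 1 of 3 controls) and the tropomyosin gene Tpm1. Tpm1 read 10.81, 11.21 and 11.42 in controls and 12.37, 12.27 and 12.09 in REST KO (1.09 ± 0.17, adjusted p = 0.0384). Zyx, the focal adhesion protein zyxin, had 0.93 ± 0.17 (adjusted p = 0.0525), and the calponin gene Cnn2 1.03 ± 0.19 (adjusted p = 0.0548). In 7 of the 10 genes the arrays did not overlap between genotypes, as in 26.1% of all tested genes. Tagln is among these 7 and among the 3 called, but it met the detection filter only with its REST KO arrays. The shares over all genes therefore give no measure of Tagln. With only probes detected on all 6 arrays, 2 of 9 genes of this list were called. The count was 0 without control replicate 1 or any 1 REST KO array and 8 without control replicate 2, when 825 of all 11388 tested probes rose. Whether the difference in Ccn1 and Ccn2 depends on YAP or on SRF was not tested.

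**Figure D3:**
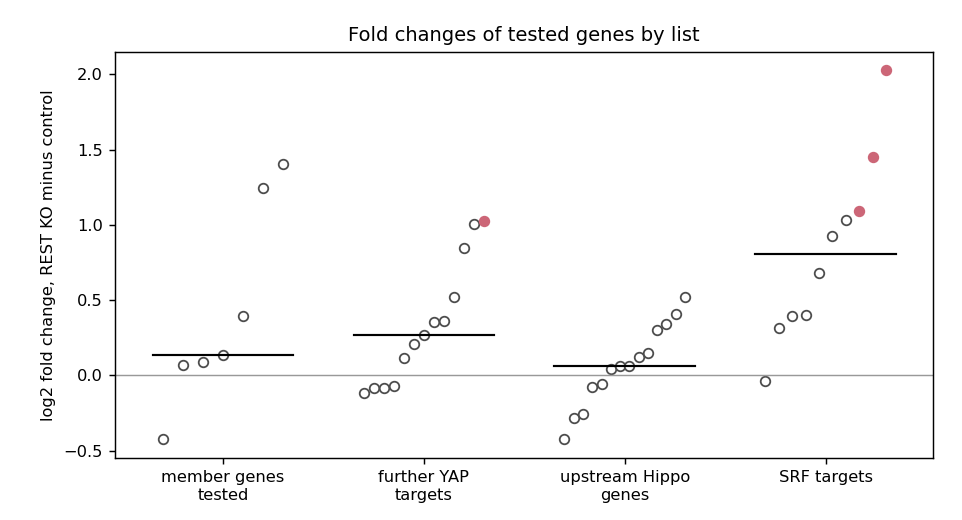
Log2 fold change (REST KO minus control) of each tested gene by its brightest probe, in 4 lists, sorted within a list. Filled points passed the adjusted p threshold, and bars mark medians of 0.14, 0.26, 0.06 and 0.80 from left to right.

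The centred levels of Ccn1 and Ccn2 were averaged over the 2 genes, and the 8352 other named protein-coding genes tested were ranked by root-mean-square distance from that profile over the 6 arrays. This ranking is a description with no test, and many genes that separate the genotypes lie near. Among the closest were Cdk5r1, the p35 activator of CDK5 (distance 0.08 on the log2 scale), and Tes, the focal adhesion protein testin (0.09). Ccnd2, cyclin D2, and Nedd9, an adhesion scaffold, were at 0.10 and 0.11. The distance between Ccn1 and Ccn2 themselves was 0.37. It lies between 2 genes and not between a gene and their mean, so it cannot be compared directly with the distances above. In these 4 genes the lowest array was control replicate 1, as in Ccn1 and Ccn2, and their log2 differences ran from 1.14 ± 0.19 in Nedd9 to 1.42 ± 0.20 in Cdk5r1. Both traits follow from the selection by this profile and are not separate observations.

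**Figure D4:**
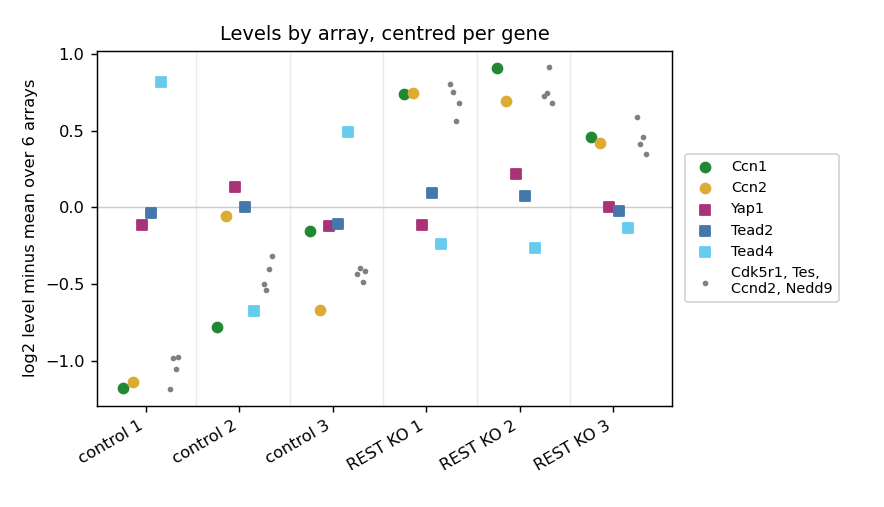
Log2 level of single genes on each array, minus that gene's mean over the 6 arrays. Ccn1, Ccn2, Cdk5r1, Tes, Ccnd2 and Nedd9 are below 0 in every control and above 0 in every REST KO array, Yap1 and Tead2 stay near 0, and Tead4 is highest in control replicate 1 and lowest in control replicate 2. Cdk5r1, Tes, Ccnd2 and Nedd9 were selected on these arrays for their likeness to Ccn1 and Ccn2.

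Markers of other cell types moved with the genotypes in part. Fibroblasts express much Ccn1 and Ccn2, so their markers were examined too. Of 11 fibroblast markers on the array 9, among them Col1a1, Col1a2, Col3a1, Postn, Lum and Dcn, were detected on no array. Vim was higher in every REST KO array than in any control (0.44 ± 0.19, adjusted p = 0.263), and Thy1 was not (-0.06 ± 0.15). These 2 tested markers had a mean of 7.41 to 7.99 in controls and 7.85 to 8.06 in REST KO. Of 8 trophectoderm markers 5 were tested, and Gata3 and Krt18 rose, where 1.11% of all tested genes rose. Krt8 had 1.04 ± 0.26 (adjusted p = 0.0953) and Cdx2 0.69 ± 0.17 (adjusted p = 0.0977). In 4 of the 5 the arrays did not overlap, as in 26.1% of all tested genes. The mean of the 5 was 7.24 to 8.38 in controls and 8.45 to 8.75 in REST KO, with Eomes, Elf5 and Hand1 detected nowhere. Tfap2c, a trophectoderm and germ cell factor, resembled Tead4 in its controls, at 12.08, 8.21 and 12.01, and read 9.57, 9.77 and 11.28 in REST KO (-0.56 ± 1.03, adjusted p = 0.805).

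Of 9 endoderm markers 5 were tested, with a mean of 8.25 to 8.34 in controls and 8.00 to 8.11 in REST KO, and Gata4, Sox17, Pdgfra and Afp were detected nowhere. Sox7, an endoderm transcription factor, was detected on all controls and on no REST KO array (at least 1.43-fold lower, limma's adjusted p = 0.0239), and it entered the test only through the controls. Lama1 (-1.31 ± 0.52, limma's adjusted p = 0.221) and Gata6 (-0.24 ± 0.18, adjusted p = 0.499) were also below 0, with overlapping arrays. In the opposite direction, Sparc had 0.59 ± 0.13 (adjusted p = 0.0724, arrays not overlapping) and Dab2 0.71 ± 0.40 (adjusted p = 0.371). Of 6 neural progenitor markers only Nes was tested, and it entered the test only through REST KO, since no control array detected it. Its values were 5.14 to 5.64 in controls, at background, and 6.14 to 6.64 in REST KO, at least 1.49-fold higher. Pax6, Sox1, Fabp7 and Neurog2 were detected nowhere. Of the 7 ES cell markers Dppa5a lay near the top of the scale on every array, at 15.76 to 15.82, and is given no direction. The other 6 had a log2 fold change below 0, from -1.01 ± 0.41 in Esrrb to -0.08 ± 0.12 in Pou5f1, and none of the 7 passed with limma (2 had an unadjusted p under 0.05). The part of these markers in the levels of Ccn1, Ccn2 and Tead4 was not tested.

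In the authors' deposited table, made from values without background correction, 3 of the 16 probes had an adjusted p under 0.05, where 1.74% of its 25695 probes had one. These were 2 Ccn1 probes, with log2 fold changes of 0.91 (adjusted p = 0.014) and 0.50 (0.0426) in the authors' deposited table, and Ccn2 with 1.22 (0.0234). In the authors' deposited table Yap1 was at 0.06, Wwtr1 at 0.07 and 0.03, Tead2 at 0.09 and the brightest Tead4 probe at -0.22, with adjusted p of 0.645 or more.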

How the data were processed

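RNA of 6 samples was read on 1 bead chip. Per the file headers, the authors deposited mean probe intensity from BeadStudio 3.3.7 with no normalization, with the number of beads and a bead standard deviation beside it. The deposited detection score rises with signal although its heading reads as a p-value, so 1 minus the score was taken as the detection p. The deposited log2 values equalled quantile normalized log2 intensities to within 5e-09. The authors' deposited comparison holds log2 fold changes and each p-value from limma, per the labels. The sources used here give neither its genome build nor its model options.

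Intensities were corrected with a normal-exponential model from the detection p, an offset of 16 was added, and arrays were quantile normalized and log2 transformed (neqc, limma 3.58.1, R 4.3.3). Because of the offset, fold changes of dim probes are compressed. Of 25697 probes 11388 were tested with lmFit and eBayes on genotype, two-sided, with Benjamini-Hochberg adjustment over all of them and a threshold of 0.05. Errors of differences are standard errors and errors of levels are standard deviations. The brightest tested probe stands for a gene. For a probe detected on no array of 1 genotype, the fold is a bound, taken per array against the probe's level or the lowest level of any detected probe, whichever is higher. Gene names came from the authors' table or the target name, updated through RefSeq (GRCm38.p6).

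The genes and lists were chosen with earlier results of these data known. Named genes were all listed genes, called members of each list or the 3 with the smallest adjusted p, and the 5 genes of most similar profile, of which 1 is not reported here. The markers, genes detected nowhere, and Edn1, Fjx1, Stk3, Stk4, Sav1, Zyx and Cnn2 were named after their values were seen. The REST KO against control fit was also run on 11388 simulated probes. At a true log2 change of 0.5 it found 16% of the altered probes, at 1 it found 56%, and at 2 it found 92%. Another 12 probes were called wrongly. These shares need not hold for the measured arrays, where control replicate 2 stood apart and leaving out 1 array moved the probes called between 0 and 1668. Alternatives were another normalization, background, offset, filter, weighting, eBayes options, the replicate block and leaving out each array. Replicate pairs differed by at least 2.15 times the bead error in mean squared difference, so none were merged. The number of arrays limits the precision.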

Additional observations from a re-analysis of the deposited data

How the results depend on the processing

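The number of listed genes called was 0, and it was 2 with no background correction, 2 with an offset of 50, 2 with array weights, 1 with trend and robust eBayes, and between 0 and 3 with 1 array left out (3 without control replicate 2, when Ccn1 and Ccn2 rose and Tead4 fell, and 1 without control replicate 3). Yap1 reversed to -0.021 (adjusted p = 0.965) without REST KO replicate 2, and ran from -0.021 to 0.15 with 1 array left out. Of 110 values of the 8 tested probes 91 kept their direction and their side of the threshold, 11 newly passed, 7 no longer passed and 1 reversed. The count of all probes called, 145, was 332 with no background correction, 274 with an offset of 50, 69 with probes detected on all arrays, 50 with no filter, 1386 with array weights, 364 with trend and robust eBayes, and from 0 to 1668 with 1 array left out. The 1668 came without control replicate 2, the setting in which 3 listed genes were called. The upstream list went from 0 to 1 with array weights and from 0 to 2 with 1 array left out. The further target list, at 1, was 0 with no filter, 3 with array weights and from 0 to 3 with 1 array left out. The SRF list, at 3, was 5 with no background correction, 5 with an offset of 50, 1 with no filter, 8 with array weights, and from 0 to 8 with 1 array left out. Causes of these changes were not tested. Dim probes, such as the dimmer ones of Ccn1 and those of Tead4, lie near background. Correlations of deviations between genotypes were -0.27, 0.34 and 0.36 for replicate numbers 1 to 3. Between different numbers they ran from -0.55 to 0.45, so these values do not show that replicate numbers pair the samples. With the replicate block 0 probes were called (2376 at an unadjusted p under 0.05), and 0 of the further targets and 0 of the SRF targets.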
